A study of Mus musculus with 47 samples.

Results

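The genes described here are 9 markers of B lymphocyte precursors, Il7r, Ebf1, Pax5, Rag1, Vpreb1, Igll1, Vpreb3, Cd79a and Cd79b, chosen by name and found as 9 of the 20456 genes in the count table. They were followed in all 47 libraries of bulk RNA from liver, lung and brain of E18.5 mouse embryos, strain C57BL/6, where E18.5 is the age in days after mating, shortly before birth. The embryos were Daxx Y130A or Daxx S226A mutants, described in the study as homozygous for alleles made with CRISPR/Cas9 in zygotes of C57BL/6N, with founders then crossed to C57BL/6J, or wild-type (WT) embryos, and the control of each mutant was the WT of the same set of litters. Daxx is a chaperone of the histone variant H3.3. The S226A change abolishes its binding to H3.3 and the Y130A change its binding to the chromatin remodeller Atrx, and both alleles also carry silent changes near the target. The study also found less Daxx protein with S226A and more with Y130A than in WT. It holds an incomplete loss of Atrx binding possible for Y130A, because a faint ATRX band was seen in some replicates. Each of the 12 groups of 1 tissue and genotype held 4 embryos, except the WT lungs of the Y130A litters, which held 3 after the study left out 1 WT lung as an outlier, a library not analysed here. In all, 17 embryos of 8 litters gave libraries, of which 9 were WT.

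At this age the liver is the main site of blood formation in the mouse, and B lymphocytes develop there from lymphoid progenitors before the bone marrow takes over. The progenitor first receives interleukin 7 through the receptor chain encoded by Il7r. Ebf1 and then Pax5, both transcription factors, fix the B lineage, and Rag1 encodes a subunit of the recombinase that cuts the immunoglobulin genes. Vpreb1 and Igll1 together form the surrogate light chain, which pairs with the newly made heavy chain in the pre-B cell receptor, and Vpreb3 encodes a related small protein that binds nascent immunoglobulin chains inside the cell. Cd79a and Cd79b form the signalling pair of the pre-B and B cell receptors.

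On assembly GRCm38, with positions from GENCODE M21, the members lie on 7 chromosomes as protein-coding genes. Il7r is on chromosome 15 (9505788 to 9530176, minus strand), Ebf1 on chromosome 11 (44617317 to 45008091, plus strand) and Pax5 on chromosome 4 (44524757 to 44710487, minus strand). Rag1 is on chromosome 2 (101638282 to 101649501, minus strand), Vpreb3 on chromosome 10 (75943057 to 75949657, plus strand) and Cd79a on chromosome 7 (24897381 to 24902197, plus strand). Cd79b lies on the same chromosome as Ebf1 (106311341 to 106314762, minus strand). The surrogate light chain genes are close neighbours on the minus strand of chromosome 16, Igll1 at 16860671 to 16863985 and Vpreb1 at 16868403 to 16870843. Reads of Vpreb1 are uncertain, because a near-identical copy, Vpreb2, is also counted and because its exons overlap those of Top3b on the other strand. The exons of Rag1 overlap those of B230118H07Rik on the same strand. Exons of Pax5 overlap antisense transcripts that are not in the table. Whether strand was used in counting is not given in the sources used here.

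RefSeq promoters on GRCm38.p6, from 250 bases before to 50 after the start, were found for 8 of the 9 members, with a pair of them for Ebf1. They were searched on both strands for CCCNNGGG, the core of the motif bound by Ebf1, for the full motif, which is this core with a T before it and an A after it, and for the E-box CAGCTG, a site type bound by the E proteins that act together with Ebf1. Of 32851 promoters in the table, 0.904% held the full motif, 13.7% the core and 16.3% the E-box. Of the 9 member promoters, 0 held the full motif, 1 held the core (Igll1) and 2 held the E-box (Igll1 and Rag1). The 250 bases before the start are shown for Pax5, whose read counts differed in S226A embryos, and for Igll1 and Rag1, whose counts passed no test there, with matches to the searched letters in capitals.
Pax5, chr4:44710695-44710944, minus strand: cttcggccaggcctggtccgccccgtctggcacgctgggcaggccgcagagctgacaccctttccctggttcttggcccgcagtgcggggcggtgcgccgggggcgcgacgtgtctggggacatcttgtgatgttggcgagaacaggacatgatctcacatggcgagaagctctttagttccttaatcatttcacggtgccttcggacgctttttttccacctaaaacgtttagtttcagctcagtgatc
Rag1, chr2:101649533-101649782, minus strand: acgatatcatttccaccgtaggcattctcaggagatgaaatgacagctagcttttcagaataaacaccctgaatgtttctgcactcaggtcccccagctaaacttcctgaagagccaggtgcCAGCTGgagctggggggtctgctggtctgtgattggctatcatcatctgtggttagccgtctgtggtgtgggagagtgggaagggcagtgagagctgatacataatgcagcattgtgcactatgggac
Igll1, chr16:16863986-16864235, minus strand: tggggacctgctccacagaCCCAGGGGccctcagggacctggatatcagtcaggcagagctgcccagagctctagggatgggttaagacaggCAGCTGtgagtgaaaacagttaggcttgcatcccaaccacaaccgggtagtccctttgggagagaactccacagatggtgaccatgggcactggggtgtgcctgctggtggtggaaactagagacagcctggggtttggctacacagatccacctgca
A match is a description of these letters and not a site, and a promoter without a match says nothing of the factor.

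The depth was 15722147 to 26190403 counted reads per library in the S226A litters and 36351738 to 54885020 in the Y130A litters, so that low counts are less precise in the former. Counts are given below as normalized counts, scaled to a common library size of 29555793 reads after TMM normalization. Markers of liver, lung and brain were high in the tissues so labelled. Liver genes summed to 262 to 35287 normalized counts in lungs, with the highest in a Y130A lung, against at least 4116630 in livers. Lung genes reached 499 in a Y130A brain, against at least 157931 in lungs. Squamous epithelial genes summed to 82.9 to 5877 in lungs. The part of other tissues in the low lung and brain counts was not tested. Of the 16 livers, 2 stood apart: the WT replicate 2 of the S226A litters and the Y130A replicate 1 held 34301 and 22576 normalized counts of 8 squamous epithelial genes, against at most 300.5 in the other 14. Of the 15 lungs, 6 held more than 250 normalized counts of 10 T cell genes (at least 300.3, against at most 194 in the other 9), a limit set after the values were seen. Calls of the members, and of the listed genes in S226A liver and lung, were also made without these libraries, and those that were lost are given below.

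In WT embryos of both sets of litters the mean level of the members was higher in liver than in lung and brain, except for Ebf1, which was highest in brain. Per kilobase of exons, the liver levels ranged from 14.1 ± 2.67 RPKM (SD, n = 8) for Cd79b, through 9.86 ± 2.85 for Vpreb3, 8.39 ± 1.48 for Igll1, 7.08 ± 1.93 for Cd79a and 6.41 ± 1.72 for Rag1, to 4.52 ± 1.68 for Vpreb1, 4.15 ± 0.782 for Ebf1, 2.87 ± 0.596 for Il7r and 2.75 ± 0.562 for Pax5. Neighbours in this order differed by less than the larger of their SDs, except Cd79b and Vpreb3, Rag1 and Vpreb1, and Ebf1 and Il7r. In each of 6 embryos with both tissues, the normalized count of all 9 members was higher in liver than in lung, and in each of 8 embryos 8 members were higher in liver than in brain. The ratio of the mean normalized counts, liver over lung, was 137 for Igll1, 61.6 for Pax5, 35.5 for Cd79a, 22.2 for Vpreb3, 21.7 for Il7r, 21.1 for Vpreb1, 6.87 for Rag1, 3.37 for Cd79b and 1.70 for Ebf1.

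Ebf1 was the member that did not follow the liver. Its normalized counts were 743 to 1459 in the 8 WT livers, 589.7 to 816 in the 7 WT lungs and 1245 to 1937 in the 8 WT brains, and it was higher in liver than in brain in only 2 of 8 embryos. Pax5 was also well above 0 in brain, at 140.2 to 220.0 normalized counts, where Il7r, Igll1, Vpreb3 and Cd79a were between 0 and 4.16. Both transcription factors are known to be used outside the B lineage, Ebf1 by neurons and mesenchymal cells and Pax5 in the developing midbrain and hindbrain. Cd79b kept 113 to 239 normalized counts in WT lungs, where Cd79a had 2.38 to 14.8. Rag1 ranged from 0 to 621 normalized counts in WT lungs and from 16.8 to 72.2 in WT brains.

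**Figure D1:**
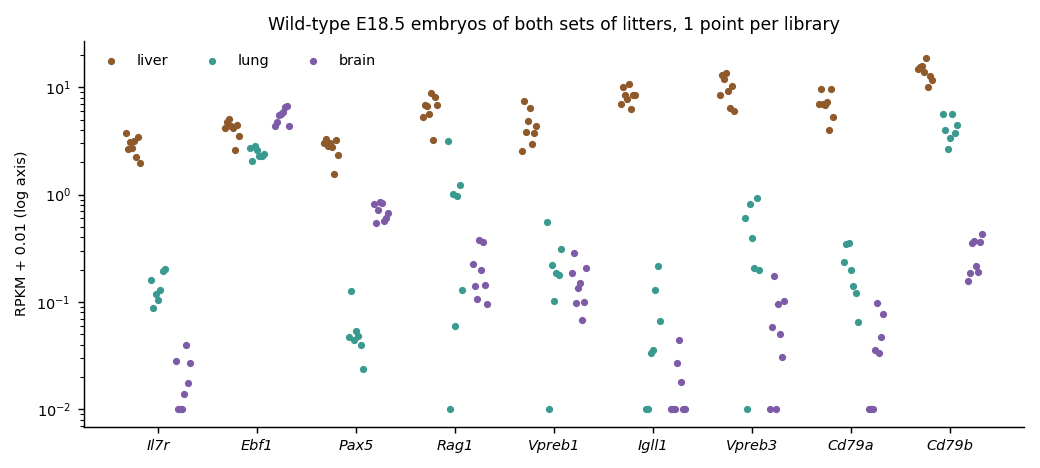
Levels of the 9 members in WT embryos of both sets of litters (vertical log axis, RPKM + 0.01, with 1 point per library; 8 livers, 7 lungs and 8 brains). Liver points lie above lung and brain points for 8 members, while Ebf1 is as high in brain (4.32 to 6.72 RPKM) as in liver (2.58 to 5.06 RPKM).

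In S226A liver, 3 of 9 members were called lower: Il7r at 39.1% of the WT mean, Pax5 at 48.1% and Cd79b at 46.8%. Called here means an adjusted p below 0.01, a log2 fold change beyond 1 and a standard error (SE) below 1 in edgeR's quasi-likelihood test over 16892 genes. By this rule 0.847% of all genes tested were called lower in S226A liver. Cd79a and Ebf1 were at 38.1% and 54.7% of the WT mean and had an adjusted p below 0.05 without meeting the full rule, so that 5 of 9 members passed this weaker limit downwards, against 5.54% of all genes. These 5 were also the members whose 4 S226A livers all lay below the 4 WT livers, which held for 5.18% of all genes. Rag1, Vpreb1, Igll1 and Vpreb3 did not pass either limit. The median log2 fold change was -0.87 over the 9 members and -0.01 over all genes. Because the libraries are bulk tissue, fewer cells of a type and less RNA per cell cannot be told apart.

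Il7r stood at 515, 369, 429 and 371 normalized counts in the 4 WT livers and at 195, 233, 144 and 86.3 in the S226A livers of the same litters in the same order. The groups did not overlap, and the mutant was lower in each of 4 litters. The log2 fold change was -1.35 ± 0.32 (SE), with an adjusted p of 0.0029 in edgeR. The exact two-sided permutation test gave p = 0.029, the smallest that 4 against 4 allows.

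Ebf1 had 1212, 1381, 1459 and 1254 normalized counts in WT liver and 868, 958, 640.0 and 435 in S226A liver. All mutant livers lay below all WT livers, and the difference held in each of 4 litters. The edgeR log2 fold change was -0.87 ± 0.17 with an adjusted p of 0.00030, the lowest among the members, but it did not reach the fold required for a call. Leaving out S226A replicate 2 brought it to -1.03, past the limit.

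Pax5 had 784, 853, 743 and 797 normalized counts in WT liver, and the S226A livers had 378, 539, 406 and 206. The groups were separate, with the mutant lower in all 4 litters, and the edgeR log2 fold change was -1.05 ± 0.27 with an adjusted p of 0.0059. Without the 2 livers rich in squamous transcripts, an alternative chosen after seeing the data, the log2 fold change was -1.01 and the adjusted p 0.012, and those of Cd79b were -1.06 and 0.017, so that only Il7r was called.

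Both genes of the signalling pair were lower in S226A liver. Cd79a stood at 298, 418, 304 and 293 normalized counts in WT liver and at 134, 186, 78.6 and 102 in S226A liver, and Cd79b at 621, 660.3, 667 and 591 against 271, 461, 347 and 109.8. Neither gene overlapped between the groups, and both were lower in the mutant in 4 of 4 litters. The edgeR log2 fold change of Cd79a was -1.38 ± 0.42 with an adjusted p of 0.022 in the fit to all libraries and 0.0027 in a fit to the 8 livers alone. That of Cd79b was -1.09 ± 0.28 with an adjusted p of 0.0076, and of 0.026 in the fit to the 8 livers alone. The pair thus changed places at the limit with the choice of libraries, while the log2 fold changes in the smaller fit were -1.37 and -1.08.

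The genes of recombination and of the surrogate light chain did not pass the test. Rag1 had 1024, 1328, 1306 and 1096 normalized counts in WT liver and 864, 1388, 889 and 616 in S226A liver, and the groups overlapped. Its log2 fold change was -0.34 ± 0.82 in the fit to all libraries, whose SE takes in the wide spread of Rag1 among lungs, and -0.33 ± 0.18 in the fit to the 8 livers (edgeR adjusted p = 0.34). Igll1 stood at 448, 639, 539 and 492.7 in WT liver and at 516, 599, 505 and 302 in S226A liver. Its edgeR log2 fold change was -0.14 ± 0.29 (95% interval -0.70 to 0.42, adjusted p = 0.84), an interval that does not reach a fall by 1. Vpreb1 had 90.8, 264, 136 and 172 against 183, 223, 245 and 102, with a log2 fold change of 0.19 ± 0.40 (edgeR adjusted p = 0.85), and its copy Vpreb2 had 25.4 to 71.9 in WT and 25.6 to 68.6 in S226A liver. Vpreb3 had 214, 328, 304 and 344 in WT liver and 193, 203, 241 and 127 in S226A liver. It was lower in the mutant in each of 4 litters, but the groups overlapped, and the log2 fold change of -0.64 ± 0.45 had an edgeR adjusted p of 0.42. In the fit to the 8 livers the value was -0.62 ± 0.23, with an unadjusted p of 0.017 and an adjusted p of 0.13 in edgeR. The exact permutation test gave p = 0.057.

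The fourth S226A liver was the lowest of its group for 8 of the members, the exception being Cd79a. Without it the log2 fold change of Il7r was -1.14 (edgeR adjusted p = 0.019), that of Pax5 -0.85 (0.038) and that of Cd79b -0.81 (0.042), and none of the 3 was called. Single libraries decided the calls more widely. The call of Il7r was also lost without WT replicate 1 or S226A replicate 3, that of Pax5 without WT replicate 1, 2 or 4 or S226A replicate 1 or 3, and that of Cd79b on leaving out any 1 of the 4 WT replicates or S226A replicate 1 or 3. In these fits the log2 fold changes stayed between -1.29 and -1.01 and the adjusted p between 0.012 and 0.026. The number of members called ranged from 0 to 4.

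**Figure D2:**
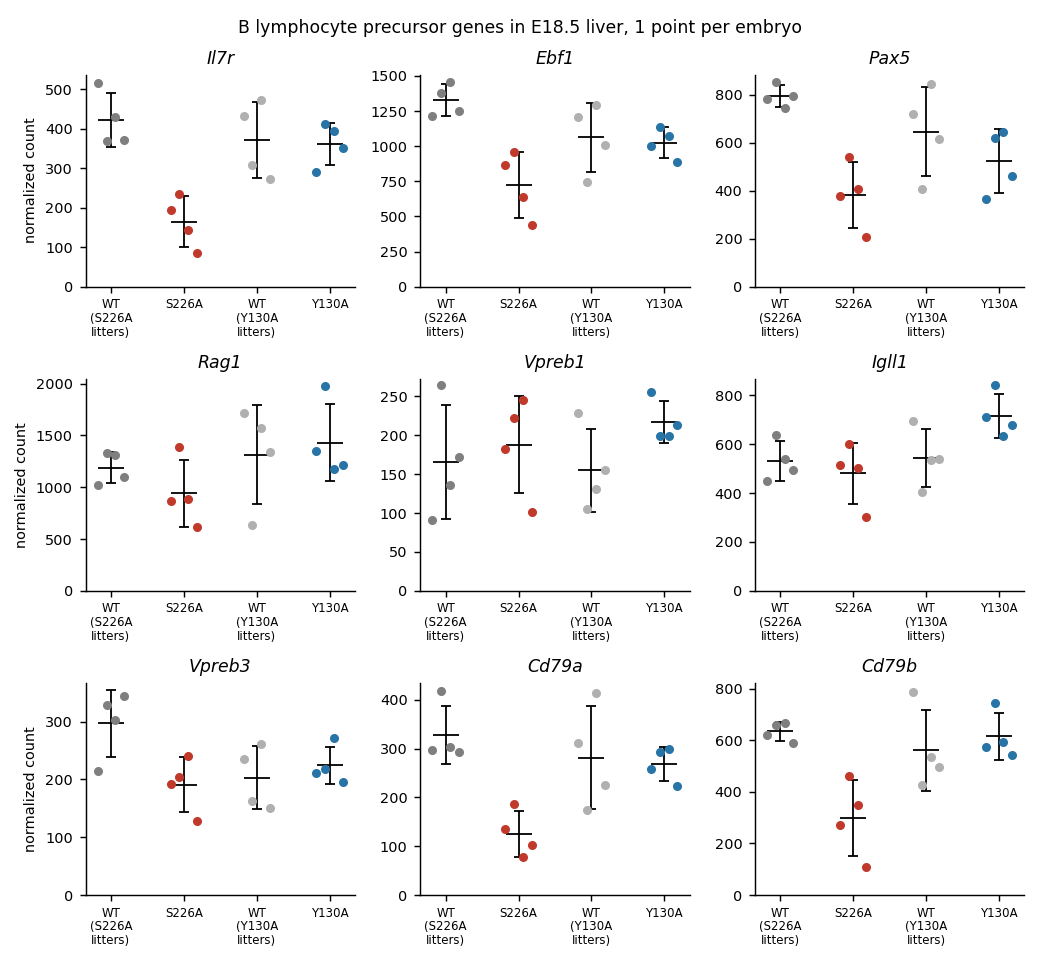
Normalized counts of the 9 members in liver (vertical axes from 0, 1 point per embryo, 4 embryos per group, bars for the mean ± SD). The 4 S226A points lie below the 4 WT points of their litters for Il7r, Ebf1, Pax5, Cd79a and Cd79b, and overlap them for Rag1, Vpreb1, Igll1 and Vpreb3.

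Other cell types also differed in S226A liver. The 8 neutrophil genes were all called higher and summed to 256454 to 275829 normalized counts in S226A liver, against 88059 to 105419 in WT liver. The 8 macrophage genes were all called lower, with sums of 3625 to 5428 against 17076 to 19256. Genes of T cells (0 of 9 called, sums of 125 to 216 against 166 to 241) and of NK and innate lymphoid cells (0 of 6 called, 2541 to 4031 against 3708 to 4422) did not pass the test. Of 5 genes of plasmacytoid dendritic cells, 0 were called, with sums of 2465 to 3114 against 2580 to 2810. At an adjusted p below 0.05 alone, Bst2 was higher (log2 fold change 0.81) and Tcf4 (-0.52), Pacsin1 (-2.44) and Siglech were lower. Siglech had 0, 2.73, 0 and 0 normalized counts against 21.8, 52.4, 40.4 and 43.5 and was not called because its SE was 1.11. Without the 2 livers rich in squamous transcripts, all 8 neutrophil genes and 7 of the 8 macrophage genes were called. The part of these cell types in the result for the members was not tested.

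Of 31 other genes of the B lineage, 30 were tested, and in S226A liver 5 of them were called lower and 0 higher. Their median log2 fold change was -0.30, against -0.01 over all genes. Among the commitment factors, Irf4, a factor of pre-B and later stages, had 484 to 601 normalized counts in WT liver and 108 to 249.8 in S226A liver (log2 fold change -1.76 ± 0.39, edgeR adjusted p = 0.0015). Pou2af1, a coactivator of immunoglobulin gene transcription, had 569 to 661 against 78.4 to 339.9 (-1.45 ± 0.37, edgeR adjusted p = 0.0057). None of these values overlapped between the groups.

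Of 6 tested genes of later B cell stages, 3 were called lower in S226A liver. Ms4a1, which encodes the surface protein CD20, had 94.4, 44.7, 59.5 and 61.6 normalized counts in WT liver and 0, 9.56, 0 and 0 in S226A liver (edgeR log2 fold change -4.49 ± 0.98, adjusted p = 0.0016). Cd22, an inhibitory co-receptor, had 352 to 460.2 against 29.3 to 130.4, with a log2 fold change of -2.36 ± 0.47. Cd72, another inhibitory receptor of B cells, had 214 to 565 against 35.3 to 97.3, with a log2 fold change of -2.45 ± 0.52. Without the 2 livers rich in squamous transcripts, Irf4, Pou2af1, Cd22 and Cd72 were still called, and Ms4a1 (-4.62, edgeR adjusted p = 0.0018) was not, because its SE was 1.01. A further 5 genes, Spib, Bach2, Sox4, Blk and Cd24a, were lower at an adjusted p below 0.05 alone, and Spi1, which is also a factor of myeloid cells, was higher (log2 fold change 0.88 ± 0.17). The recombinase partner Rag2 had a log2 fold change of 0.63 ± 0.81 and was not called.

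Of 12 genes of the interleukin 7 pathway, 0 were called in S226A liver. At an adjusted p below 0.05, 2 were higher: Il2rg, the chain that pairs with Il7r (log2 fold change 0.98 ± 0.26, edgeR adjusted p = 0.0090), and Bcl2, a survival gene (0.40 ± 0.09, edgeR adjusted p = 0.0033). Of 4 ligands of the niche, 1 was called. Igf1, a growth factor made by many cell types, had 768, 1233, 1092 and 902 normalized counts in WT liver and 500.2, 303, 408 and 565 in S226A liver (log2 fold change -1.18 ± 0.19, edgeR adjusted p = 1.6e-05).

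In Y130A liver 0 of 9 members were called, beside 0.077% of all genes tested, and the lowest adjusted p was 0.79 for Igll1. An unadjusted p below 0.05 in edgeR was reached by 0 members, beside 9.22% of all genes. Il7r was between 291 and 411 normalized counts in Y130A liver and between 271 and 473 in WT liver of the same litters, with a log2 fold change of -0.04 ± 0.30. For Ebf1 the log2 fold change was -0.06 ± 0.16 (95% interval -0.38 to 0.26), and for Cd79a it was -0.07 ± 0.40. Pax5 had the most negative value, with 365, 618, 646 and 463 normalized counts in the mutant, 408 to 844 in WT liver, and a log2 fold change of -0.31 ± 0.26. Igll1 had 633 to 841 in the mutant and 404 to 694 in WT liver, a log2 fold change of 0.40 ± 0.28 in the other direction. It was higher in the mutant in 4 of 4 litters, and a fit to the 8 livers alone gave an unadjusted p of 0.018 and an adjusted p of 0.999 in edgeR. The groups overlapped for all 9 members, while 1.19% of all genes had every mutant below every WT liver and 1.16% above. Of the 30 other B lineage genes tested, 0 were called.

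The effects of both mutants in liver were then compared directly, through the interaction in the edgeR fit. Interactions were called by the adjusted p and the fold alone, without the SE criterion. The S226A effect was below the Y130A effect for 9 of 9 members, beside 51.6% of all genes, with a median difference of -0.78 on the log2 scale. By these limits 0 members were called, beside 1.47% of all genes, and 1 passed an adjusted p below 0.05 alone, beside 5.9% of all genes. This was Ebf1, with a difference of -0.81 ± 0.23 (adjusted p = 0.029). Which members passed the weaker limit changed with the fit. In a fit to the 16 livers alone Ebf1 did not pass (edgeR adjusted p = 0.11) and Il7r did (-1.30, edgeR adjusted p = 0.030), and with the litter as replicate block both passed (edgeR adjusted p = 0.013 and 0.022). Cd79b differed by -1.21 ± 0.39 (adjusted p = 0.056), Il7r by -1.31 ± 0.44 (adjusted p = 0.068) and Cd79a by -1.31 ± 0.57 (adjusted p = 0.20). With DESeq2 the difference of Il7r was called, at -1.34 and an adjusted p of 0.0077. For Pax5 the difference was -0.74 ± 0.37 (adjusted p = 0.28), so that a fall of Pax5 particular to S226A was not shown by this test. In liver the WT embryos of the S226A litters and of the Y130A litters differed in 0 members, beside 0.414% of all genes.

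**Figure D3:**
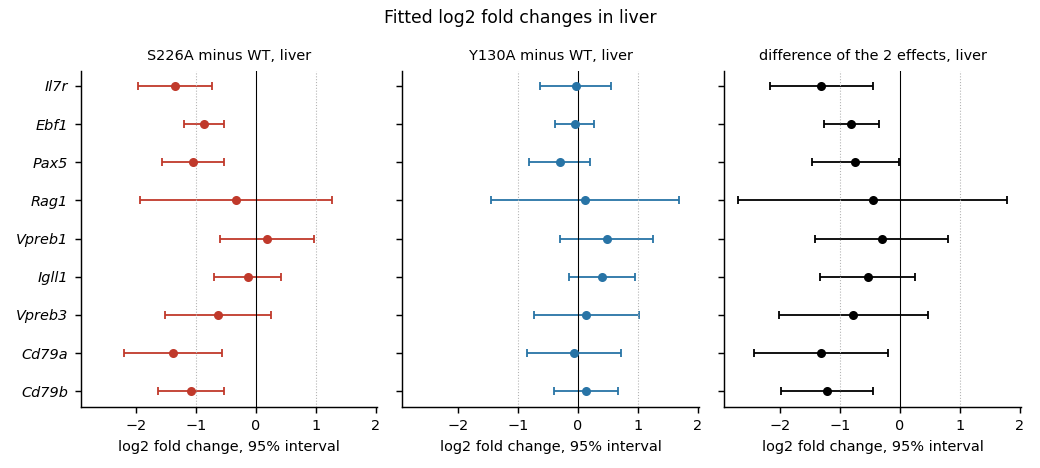
Log2 fold changes of the 9 members in liver from edgeR (horizontal axes, points with 95% intervals as bars; dotted lines at -1 and 1). In the left panel Il7r, Pax5, Cd79a and Cd79b lie beyond -1 for S226A, in the middle panel the values for Y130A lie between -0.31 and 0.48, and in the right panel the differences between both effects are all negative.

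Over the 36 pairs of members in the 16 livers of all genotypes, Pearson's r of log2 CPM ranged from 0.018 to 0.92. This is a description over libraries that share genotype and depth. Among Il7r, Ebf1, Pax5, Cd79a and Cd79b, the members lower in the S226A livers that are included, r was 0.79 to 0.92. Igll1 had r of 0.43 with Vpreb3, 0.45 with Pax5 and 0.86 with Rag1, and Rag1 had 0.46 with Vpreb3. The low end was Vpreb1, with r of 0.018 with Il7r, 0.069 with Cd79a, 0.10 with Pax5 and 0.20 with Ebf1, but 0.75 with its neighbour Igll1. The genes outside the list whose log2 CPM was most like the mean of the standardized members were Pou2af1 (r = 0.92), Arl5c (0.91), Cacna1e (0.90), Dck (0.90), Amz1 (0.90), Blnk (0.89), Slc29a1 (0.89), Ifi214 (0.89), Ptpn4 (0.89) and Itga4 (0.89). Blnk, an adaptor downstream of the pre-B cell receptor, averaged 93.7 normalized counts in S226A liver and 239 in its WT littermates, and 253 and 247 in the Y130A litters. Its log2 fold change in S226A liver was -1.34 ± 0.48 with an edgeR adjusted p of 0.062.

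In S226A lung 1 of 9 members was called, beside 0.302% of all genes tested, and it was Pax5. Its raw counts were 7, 23, 6 and 7 reads in WT lung and 0, 0, 1 and 0 in S226A lung, that is 9.70, 30.5, 8.88 and 11.3 normalized counts against 0, 0, 1.38 and 0. The groups did not overlap, which held downwards for 1.72% of all genes. The edgeR log2 fold change was -5.15 ± 0.90 (adjusted p = 0.00051). From the summed reads of 43 against 1, the ratio of WT to S226A per counted read was 48.0, with an exact 95% interval of 8.17 to 1941 that covers counting error only. Under DESeq2 the adjusted p was 0.00015 but the SE of 1.07 exceeded the limit, and in a fit to the 8 lungs alone Pax5 did not pass the filter on low counts. Without S226A replicate 3, which held the single read, or without the 6 lungs rich in T cell transcripts, the adjusted p was 0.0013 and 0.00036 and the call was lost by the SE criterion.

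The other members of S226A lung passed no test. Cd79a had 7, 11, 10 and 5 reads in WT lung and 1, 1, 2 and 14 in S226A lung, so that 3 of the 4 mutants lay below all WT lungs and 1 above (log2 fold change -1.03 ± 0.62, edgeR adjusted p = 0.42). Il7r had 8 to 15 reads against 6 to 10, with the normalized count lower in the mutant in 4 of 4 litters. Igll1 had 0 or 1 read in WT lungs and 0 to 4 in S226A lungs. Ebf1, which was abundant in lung, had 589.7 to 816 normalized counts in WT and 705 to 781 in S226A lung, a log2 fold change of 0.04 ± 0.17 (95% interval -0.28 to 0.37). Cd79b likewise had 113 to 237 against 119.7 to 183 normalized counts, with a log2 fold change of -0.18 ± 0.29. Among the 30 other B lineage genes, Pou2af1 was called lower in S226A lung (47.1, 25.2, 10.4 and 16.2 against 1.22, 0, 4.13 and 3.66 normalized counts, log2 fold change -3.40 ± 0.69, edgeR adjusted p = 0.0034). Without the 6 lungs rich in T cell transcripts its log2 fold change was -3.56 (edgeR adjusted p = 0.033) and it was not called. Ms4a1 was lower at an adjusted p below 0.05 without meeting the full rule, with 0 reads in all 4 S226A lungs.

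Other cell types also differed in S226A lung. Of the 8 neutrophil genes 3 were called higher, and the list summed to 3912 to 5450 normalized counts in S226A lung against 983 to 2295 in WT lung. Of the 8 macrophage genes 2 were called lower, Csf1r (log2 fold change -1.13 ± 0.07) and Cd163 (-1.37 ± 0.30), with sums of 1879 to 2463 against 3154 to 3995. Without the 6 lungs rich in T cell transcripts the 3 neutrophil genes and Csf1r were called and Cd163 was not (-1.14, edgeR adjusted p = 0.098). Of the 5 plasmacytoid genes 0 were called, and Siglech (-6.74 ± 1.59, edgeR adjusted p = 0.018) was lower at an adjusted p below 0.05 alone. The part of these cell types in the values of Pax5 was not tested.

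Rag1 in lung was high in the libraries that held T cell transcripts. Its normalized counts were 189 to 873, with a median of 336, in the 6 lungs over the limit for T cell genes, which came from all 4 genotype groups, and 0 to 145, with a median of 20.8, in the other 9. In S226A lungs they were 12.2, 45.5, 873 and 20.8, and in WT lungs 621, 0, 195 and 9.71. Rag1 also acts in developing T cells, and their part in its lung reads was not tested.

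**Figure D4:**
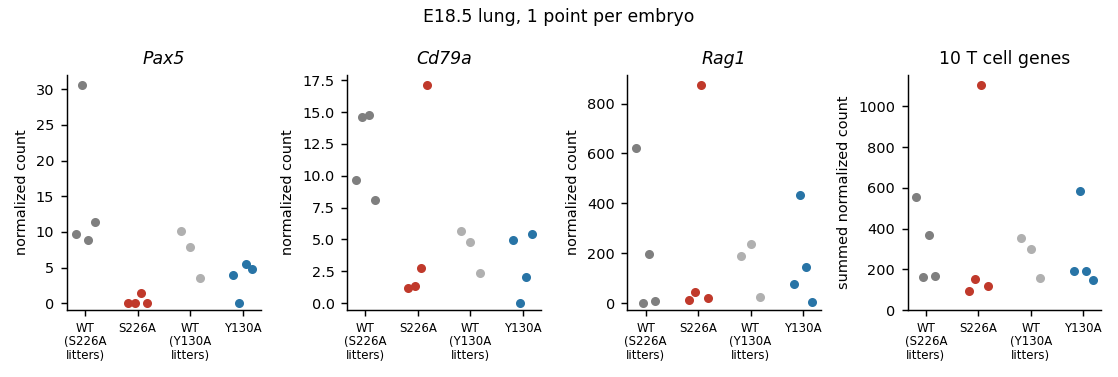
Normalized counts of Pax5, Cd79a and Rag1 and the summed normalized count of 10 T cell genes in lung (linear vertical axes, 1 point per embryo, 4 embryos per group and 3 in the WT group of the Y130A litters). Pax5 lies at 0 to 1.38 in S226A lungs and at 8.88 to 30.5 in their WT littermates, and the highest Rag1 value and the highest T cell sum are in the same S226A lung.

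In Y130A lung 0 of 9 members were called, beside 0% of all genes tested, with 0 members at an unadjusted p below 0.05 in edgeR, beside 2.92% of all genes. Pax5 had 8, 0, 8 and 7 reads in Y130A lung and 16, 13 and 6 in WT lung (log2 fold change -0.97 ± 0.53). The normalized counts of Il7r, Cd79a and Cd79b were lower in the Y130A lung in 3 of 3 litters, so that this direction of Il7r was not particular to S226A lung. The S226A and Y130A effects on Pax5 in lung differed by -4.18 ± 1.19, with an edgeR adjusted p of 0.15, and 0 of 9 members were called in this interaction, beside 0.077% of all genes. The S226A effect in liver was more negative than that in lung for 8 of 9 members, beside 53.4% of all genes. The median difference was -0.83 on the log2 scale. Most liver and lung libraries came from the same embryos, a pairing that neither this fit nor the replicate block used. An adjusted p below 0.05 alone was passed by 2 members, beside 6.9% of all genes. For Ebf1 the difference was -0.91 ± 0.24 (edgeR adjusted p = 0.012), and the adjusted p was 0.060 in a fit to the 16 libraries alone. The other went the opposite way: the effect on Pax5 in liver was less negative than that in lung, by 4.10 ± 1.03 (edgeR adjusted p = 0.0096), the 1 member called in this interaction, again without the SE criterion, beside 1.59% of all genes. The call of Pax5 was lost in a fit to the 16 libraries alone (3.85, edgeR adjusted p = 0.029), with the litter as replicate block (3.96, edgeR adjusted p = 0.030) and without the filter on low counts. It was also lost on leaving out any 1 of the 4 WT livers, S226A liver 3, WT lung 2 or 4, or S226A lung 1, 2 or 4, after which 0 members were called. The WT lungs of both sets of litters differed in 1 member, Igll1, with 0, 0, 1 and 1 reads in the S226A litters and 12, 22 and 6 in the Y130A litters (log2 fold change -3.30 ± 0.88, edgeR adjusted p = 0.0056), beside 1.62% of all genes. The depth and the litters of the sets cannot be told apart, and the call of Igll1 was not made by DESeq2, where the log2 fold change was -3.47 and the adjusted p 0.0071 but the SE was 1.06. In a fit to the 7 WT lungs alone Igll1 did not pass the filter on low counts and was not tested. The call of Igll1 was lost on leaving out any 1 of the 7 WT lungs other than replicate 3 of the Y130A litters, with 0 members then called. Of the 30 other B lineage genes tested, 1 was called higher in the WT lungs of the S226A litters and 0 lower. At an adjusted p below 0.05 alone 6 were higher and 0 lower, with a median log2 fold change of 0.51. With DESeq2, Pax5 (1.13, adjusted p = 0.033) and Cd79a (1.49, adjusted p = 0.034) were also higher there without being called. These lungs are the controls of S226A lung, and the part of this in its values was not tested.

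In brain 0 of 9 members were called for S226A, beside 0.124% of all genes, and 0 for Y130A, beside 0% of all genes. In S226A brain 2 members had an unadjusted p below 0.05, beside 2.27% of all genes, Cd79a with 7, 2, 0 and 2 reads against 0, 0, 0 and 1 and Cd79b with 9, 3, 0 and 2 against 5, 6, 14 and 14, both with an edgeR adjusted p of 1. The abundant members passed no test: Pax5 had 151 to 193 normalized counts in S226A brain and 140.2 to 220.0 in WT brain (log2 fold change -0.14 ± 0.27), and Ebf1 1337 to 1850 against 1257 to 1638 (0.13 ± 0.16). In Y130A brain the log2 fold changes of Pax5 and Ebf1 were -0.04 ± 0.26 and 0.00 ± 0.16, and 0 members had an unadjusted p below 0.05 in edgeR, beside 2.22% of all genes. The interaction in brain called 0 members, beside 0.0474% of all genes, and the WT brains of both sets differed in 0, beside 0.101%.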

How the data were processed

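The authors deposited 1 table of raw counts per gene, whole numbers without normalization, for 47 libraries of bulk RNA, after they left out 1 WT lung as an outlier. Per the study's methods, reads were aligned to GRCm38.p6 with STAR 2.6.0b and counted by it on GENCODE M19. Positions and exon lengths were taken from GENCODE M21, which matched 20445 of 20456 genes. Each library was assigned to its tissue and genotype from its title, and the first number of the title was read as the litter. Gene counts do not show the point mutations, so that the genotype labels were taken as given.

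The members and lists were chosen with earlier results of these data known, and the gene lists give no independent support. All 9 members are named with values, as are genes called from the lists of the B lineage, the interleukin 7 pathway and niche ligands. Lists of other immune cell types are given by counts and sums for S226A liver and in part for S226A lung. Those of striatal neurons, midbrain and hindbrain, and pericytes are not described, though Penk (log2 fold change 3.90) and Cspg4 (1.06) were called in S226A liver. Lists in brain are not described either, though Csf1r (-1.52) and Cd163 (-2.02) were called lower in S226A brain. Further genes (Spib, Bach2, Sox4, Blk, Cd24a, Spi1, Il2rg, Bcl2, Rag2, Vpreb2, Siglech, Bst2, Tcf4, Pacsin1, Csf1r, Cd163, Penk and Cspg4) were named after their values were seen, and 10 genes by likeness.

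The fit used edgeR 4.0.16 in R 4.3.3 (quasi-likelihood, TMM, minimum count 10 and minimum total 15) with 1 coefficient per group over all libraries, leaving 16892 genes, with Benjamini-Hochberg adjustment. The SE is the size of the log2 fold change over the square root of F. The script was tested on simulated data. RPKM were computed from normalized counts and exon lengths. Single values were compared by exact permutation of log2(normalized count + 1). Alternatives were DESeq2 1.42.0, RLE factors, no filter, fewer libraries, thinning of the Y130A litters to 20341531 reads, other criteria, each library left out, and the litter as replicate block. The litters pair the samples by design, as mutants and WT littermates. Of 23 littermate pairs, 12 had residuals correlated above 0.1, against 4 of 69 other pairs. Counts of 69 replicate pairs were compared for copies, and chi-square divided by its degrees of freedom was at least 4.09. Intervals cover counting error or the fitted SE only.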

Additional observations from a re-analysis of the deposited data

Results flagged for a closer look

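Values were examined for a sample far from the others of its group of 4, by Dixon's test, which chance passes in about 1 of 20 groups. Its limit was passed in 10 of the 98 groups tested. Where all other values of a group are 0, any read passes it, so the chance rate does not hold there. This applies to the brain values below and to Pax5 in S226A lung, and the number of groups passed cannot be set against the chance rate. In liver, Cd79a in the WT replicate 2 of the S226A litters had 418 normalized counts against 293 to 304 in the others of its group, and this is 1 of the 2 livers rich in squamous transcripts. In lung, Pax5 in the WT replicate 2 of the S226A litters had 30.5 normalized counts against 8.88 to 11.3, and Pax5 in S226A replicate 3 had 1.38 against 0 in the other 3. Rag1 in S226A lung replicate 3 had 873 against 12.2 to 45.5, and Cd79a in S226A lung replicate 4 had 17.1 against 1.22 to 2.75. In brain the values stood out from a group at 0: Il7r with 2.48 in WT replicate 1 of the S226A litters, Igll1 and Cd79a with 1.09 each in WT replicate 4 of the S226A litters, Vpreb3 with 1.03 in S226A replicate 1 and Vpreb3 with 3.32 in Y130A replicate 2, all of which rest on 1 to 6 reads.

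The S226A effect on Pax5 differed between tissues in the edgeR interaction, by 4.10 on the log2 scale between liver and lung. The fit took the libraries of both tissues as independent. The lung side rests on 43 reads against 1, and the call was lost in a fit to the libraries compared (3.85, edgeR adjusted p = 0.029), with the litter as replicate block (3.96, edgeR adjusted p = 0.030), without the filter on low counts and on leaving out single libraries.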

How the results depend on the processing

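The number of members called was 3 in S226A liver. It was 4 with DESeq2 and 3 with RLE factors, without the filter, in the fit to the libraries compared, with the litter as replicate block (3 called) and without the SE criterion. It was 5 at an adjusted p below 0.05 alone, 1 without the 2 livers rich in squamous transcripts (chosen after seeing the data) and 0 to 4 when each library was left out in turn. In S226A lung the number was 1, and the replicate block kept the call of Pax5 (adjusted p = 0.0057). It was 0 with DESeq2, 0 in the fit to the libraries compared, 0 without the 6 lungs rich in T cell transcripts (chosen after seeing the data) and 0 or 1 on leaving out each library. For the difference between the S226A and Y130A effects in liver, where 0 members were called, DESeq2 called 1 and an adjusted p below 0.05 alone gave 1. For Igll1 between the WT lungs of both sets, the number of 1 became 0 with DESeq2, 0 in the fit to the libraries compared, 0 without the 6 lungs rich in T cell transcripts and 0 or 1 on leaving out libraries. In the fits to the lungs compared, neither Pax5 nor Igll1 passed the filter on low counts, so that these numbers of 0 come from genes not tested. This contrast allows no replicate block, since litters do not cross the sets. For the S226A effect in liver against lung, the number of 1 became 0 without the filter, 0 in the fit to the libraries compared, 0 with the replicate block and 2 at an adjusted p below 0.05 alone, and 0 or 1 on leaving out libraries. The cause of these changes was not tested. The other comparisons stayed at 0 under every alternative run, thinning of the Y130A litters included.

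For the comparisons of a mutant with its WT littermates, 711 values of single members under an alternative were formed. Interactions and contrasts between WT groups are not among them. Of these 711 values, 686 stayed on the same side of the call, 22 lost it and 3 gained it, and no called value changed sign. A further 40 values that were never called changed sign. Counts of a few reads in lung and brain limit the precision there for all members but Ebf1, Rag1, in lung Cd79b and, in brain, Pax5, while Rag1 is limited in lung by its spread between libraries.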

Other observations

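Ratios of reads within 1 liver library do not depend on normalization, and those below were formed after the values were seen, with no test. Reads of Pax5 per read of Igll1 were 1.33 to 1.75 in the 4 WT livers of the S226A litters and 0.682 to 0.900 in the 4 S226A livers. They were 1.01 to 1.57 in the WT livers of the Y130A litters and 0.513 to 1.02 in the Y130A livers, so that the Y130A values reached as low as those of S226A and overlapped their controls. Ebf1 per Igll1 gave 2.16 to 2.70 and 1.27 to 1.68 in the S226A litters, and 1.74 to 2.41 and 1.30 to 1.70 in the Y130A litters. Mutant and WT did not overlap in either set, but how often ratios of other gene pairs separate in this way was not counted. Cd79a per Igll1 was 0.563 to 0.664 in WT and 0.156 to 0.338 in S226A liver, and 0.419 to 0.772 in WT and 0.329 to 0.472 in Y130A liver. Il7r per Igll1 was 0.578 to 1.15 against 0.286 to 0.390 in the S226A litters and 0.503 to 0.881 against 0.409 to 0.621 in the Y130A litters. With Rag1 in place of Igll1, Pax5 per Rag1 was 0.569 to 0.766 in WT and 0.334 to 0.457 in S226A liver. In the Y130A litters it was 0.418 to 0.643 in WT and 0.272 to 0.548 in the mutant, which overlapped. Within the Y130A litters no member was called in liver, and there the numerators and Igll1 had log2 fold changes of opposite sign: Igll1 0.40 ± 0.28, Pax5 -0.31 ± 0.26, Ebf1 -0.06 ± 0.16, Cd79a -0.07 ± 0.40 and Il7r -0.04 ± 0.30.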
